A study of Homo sapiens with 12 samples.

Results

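The heat shock genes described here are 10 genes that encode chaperones: HSPA1A, HSPA1B, HSPA8, HSPH1, HSP90AA1, HSP90AB1, DNAJB1, DNAJA1, HSPB1 and HSPE1. They were taken by symbol from the 60649 gene IDs that both deposited count tables list, and all 10 were found and were expressed in every library, with a lowest count of 351. Poly-T selected RNA was sequenced from tumours that grew in a host animal after xenografting of Cal33, an established cell line from a squamous carcinoma of the head and neck. TEAD proteins are the DNA-binding partners of the co-activators YAP and TAZ, and the series asks what blocking that partnership does in this cancer. In the first experiment, 3 tumours treated with SW-682, a small-molecule TEAD inhibitor, stood against 3 tumours given Vehicle. In the second, 3 tumours in which pTEADi, a genetically encoded inhibitor of the same partnership, was switched on with doxycycline (DOX+) stood against 3 Control tumours without doxycycline (DOX-).

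Doxycycline and pTEADi cannot be told apart in the second experiment, since no group received doxycycline alone. The labels do not say whether the Control tumours carry the pTEADi construct, how much SW-682 was given, how long either treatment lasted, whether the construct line is 1 clone, or whether the 3 tumours of a group came from separate animals. If they did not, p-values measure only the spread between these tumour samples, which may be technical.

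Heat shock proteins bind unfolded proteins and help them fold, and many of their genes are switched on by the transcription factor HSF1 when proteins are damaged. HSP70 proteins (HSPA1A, HSPA1B, HSPA8) bind unfolded chains in cycles that J-domain proteins (DNAJB1, DNAJA1) start and the HSP110 protein HSPH1 helps to reset. HSP90 proteins (HSP90AA1, HSP90AB1) take over late folding of kinases and receptors, and HSPB1 is a small heat shock protein that holds unfolded chains in a soluble form and is abundant in squamous epithelium. HSPE1, although listed with the cytosolic genes, encodes the co-chaperonin that works with HSPD1 inside mitochondria, and the name cytosolic does not cover it.

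The promoters are shown first because heat shock genes are recognised by the heat shock element, a run of alternating GAA and TTC units that HSF1 binds. Each line is the 250 bases before a RefSeq start (GRCh38.p14), 5′ to 3′ on the gene's strand, and capitals mark full matches to GAANNTTC or to the longer GAANNTTCNNGAA on either strand. The first 4 belong to the genes that rose with pTEADi, HSPA8 and HSP90AB1 carry the longer form, and the last is the window of HSPD1, the mitochondrial partner of HSPE1.
HSPA1A: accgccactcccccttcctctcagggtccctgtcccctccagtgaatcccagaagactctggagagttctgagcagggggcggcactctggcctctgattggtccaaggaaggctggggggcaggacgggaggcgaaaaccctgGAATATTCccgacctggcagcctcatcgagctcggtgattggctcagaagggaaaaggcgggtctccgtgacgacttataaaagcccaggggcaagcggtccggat
HSPA1B: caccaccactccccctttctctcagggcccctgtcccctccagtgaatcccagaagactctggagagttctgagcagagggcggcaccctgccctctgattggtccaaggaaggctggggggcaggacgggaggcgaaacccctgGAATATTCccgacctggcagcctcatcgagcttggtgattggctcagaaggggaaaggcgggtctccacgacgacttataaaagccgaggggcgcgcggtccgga
HSPB1: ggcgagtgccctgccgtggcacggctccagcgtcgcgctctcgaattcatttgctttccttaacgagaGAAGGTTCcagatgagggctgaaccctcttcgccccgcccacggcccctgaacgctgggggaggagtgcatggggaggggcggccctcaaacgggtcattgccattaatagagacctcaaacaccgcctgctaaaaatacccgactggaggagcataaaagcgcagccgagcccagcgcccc
DNAJB1: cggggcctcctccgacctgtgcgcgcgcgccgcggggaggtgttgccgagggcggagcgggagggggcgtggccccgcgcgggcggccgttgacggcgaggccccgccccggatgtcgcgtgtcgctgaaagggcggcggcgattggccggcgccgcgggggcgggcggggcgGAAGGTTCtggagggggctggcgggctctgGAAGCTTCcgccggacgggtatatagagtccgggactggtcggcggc
HSPA8: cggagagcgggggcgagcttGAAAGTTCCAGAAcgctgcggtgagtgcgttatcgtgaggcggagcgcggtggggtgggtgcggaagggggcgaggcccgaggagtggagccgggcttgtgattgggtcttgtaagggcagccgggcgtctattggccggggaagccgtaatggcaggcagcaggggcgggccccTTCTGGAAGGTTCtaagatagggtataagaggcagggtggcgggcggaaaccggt
HSP90AB1: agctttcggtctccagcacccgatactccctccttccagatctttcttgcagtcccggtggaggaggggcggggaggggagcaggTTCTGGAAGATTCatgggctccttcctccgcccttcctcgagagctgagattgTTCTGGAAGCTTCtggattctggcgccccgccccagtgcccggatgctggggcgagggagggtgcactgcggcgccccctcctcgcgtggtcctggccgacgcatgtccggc
HSPD1: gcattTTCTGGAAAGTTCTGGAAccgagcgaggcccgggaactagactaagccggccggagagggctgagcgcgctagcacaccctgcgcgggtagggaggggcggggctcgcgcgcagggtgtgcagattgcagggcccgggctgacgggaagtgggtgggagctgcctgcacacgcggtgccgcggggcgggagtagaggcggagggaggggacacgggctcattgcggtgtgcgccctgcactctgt

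In the same order these windows lie at chr6:31815293-31815542 and chr6:31827488-31827737 (plus strand), chr7:76302423-76302672 (plus), chr19:14518398-14518647 (minus), chr11:123062137-123062386 (minus), chr6:44247693-44247942 (plus) and chr2:197499841-197500090 (minus). The 10 genes have 15 such windows in the table, because some have several starts. Where a gene has several windows, the one printed holds a match. The HSP90AB1 window shown lies downstream of the start of its canonical transcript, at chr6:44247101. Its other windows, among them the one directly before that start (chr6:44246851-44247100), held no match to either form. The form GAANNTTC was present in 8 of these 15 windows, against 5.78% of the 35116 windows of the same 250 bases in the whole table. Those 8 belong to 8 of the 10 genes, all but HSPH1 and HSPE1. For HSPH1 the only window (chr13:31162389-31162638, minus) lies upstream of its canonical start at chr13:31161904. The bases directly before that start were not searched. The longer GAANNTTCNNGAA, which contains the shorter form, was found for HSPA8, HSP90AA1 and HSP90AB1, and in 0.441% of all windows. HSPA1A and HSPA1B carried TATAAA, which 10.7% of all windows hold. The letters GGAATG, the core that TEAD proteins are known to bind, were in 0 of the 15 windows and in 11.9% of all windows, on either strand. These matches are letters in a window and were not tested as binding sites.

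HSPA1A (ENSG00000204389.10, chr6:31815543-31817946) and HSPA1B (ENSG00000204388.7, chr6:31827738-31830254) lie on chromosome 6. Their canonical transcripts each consist of 1 exon and lie 9795 bases apart in the Gencode 44 annotation of GRCh38. Their 250-base windows were identical at 235 of 251 aligned columns, 93.6%. Their counts held fractions in all 12 libraries, as did those of HSPE1, which shows that RSEM divided reads between similar sequences. The split between HSPA1A and HSPA1B is therefore less certain than their sum. HSPA8, on the minus strand of chromosome 11, and HSP90AB1, on the plus strand of chromosome 6, had whole counts in every library.

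Library totals were 13576494 to 15433679 expected counts, and the 10 genes together took 0.764% to 0.985% of a library in the Vehicle and SW-682 groups, 1.08% to 1.304% in Control and 1.34% to 1.48% with pTEADi. Levels below are CPM, counts scaled to a common library total, after TMM scaling of all 12 libraries together, listed in the order of replicates 1, 2 and 3. Squamous markers summed to 52020 to 82750 CPM across the libraries, so the labelled tissue was present. Marker sums of other cell types were low. Fibroblast markers summed to 73.1 to 135.5 CPM, nearly all of it COL1A1, with COL3A1 at 0. Leukocyte markers summed to 26.8 to 65.4 (TYROBP and AIF1 at 0) and endothelial markers to 13.0 to 64.3 (KDR at 0). Adipocyte markers summed to 11.3 to 63.9 (ADIPOQ, CIDEC and LEP at 0), while skeletal muscle stayed at 4.12 CPM or below. Reads were aligned to the human genome, so RNA of the host animal may be missed in these sums. They therefore do not show how many host cells were present. The labels do not say whether host reads were removed. In bulk RNA, a change in the share of cells that express a gene and a change in RNA per cell cannot be told apart.

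**Figure D1:**
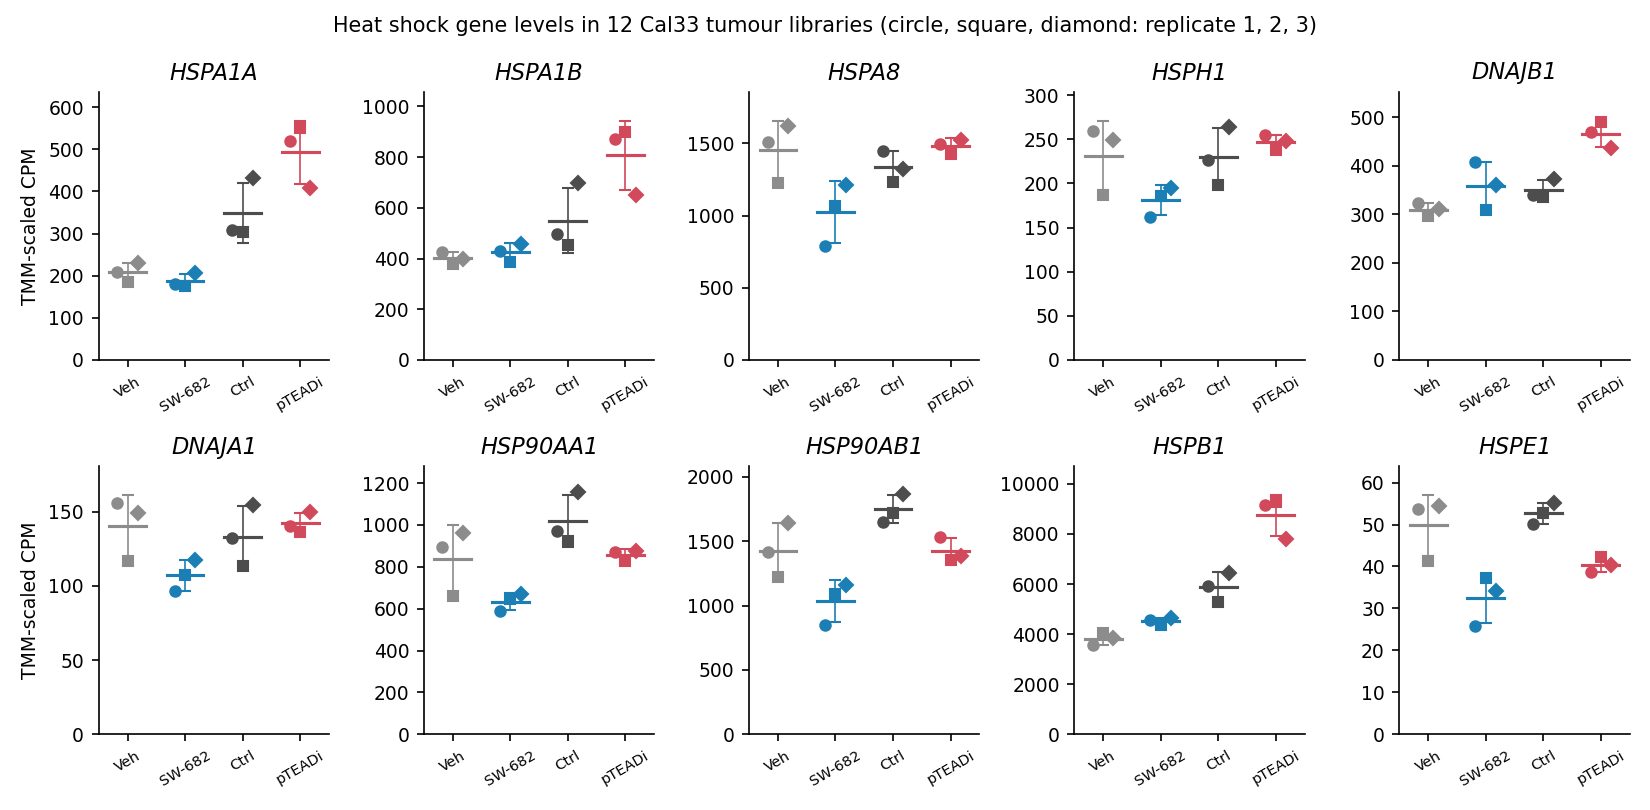
TMM-scaled CPM (vertical axes, from 0) of the 10 heat shock genes in the 4 groups; points are single tumour libraries, horizontal lines the mean and error bars the SD (n = 3). DNAJB1 and HSPB1 were higher in all 3 pTEADi libraries than in any Control library, HSPE1 was lower in the treated libraries of both experiments, and HSPA8 and HSP90AB1 were lower in every SW-682 library than in any Vehicle library.

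With pTEADi, 4 of the 10 genes rose (HSPA1A, HSPA1B, DNAJB1 and HSPB1), 2 fell (HSP90AB1 and HSPE1) and 4 did not pass the test. Of the 14705 genes tested in that comparison, 12.7% rose and 13.6% fell, 26.3% in all, by the same rule, an adjusted p under 0.05 in edgeR's quasi-likelihood test. At an unadjusted p under 0.05 there were 7 of the 10, the further one being HSP90AA1, against 38.2% of all genes. With SW-682, 0 of 10 passed in either direction, where 5.50% of 14829 genes did, 2.02% higher and 3.48% lower. At an unadjusted p under 0.05 the SW-682 comparison held 6 of the 10 genes, all negative (HSPA8, HSPH1, HSP90AA1, HSP90AB1, DNAJA1 and HSPE1), against 27.8% of all genes. DESeq2 called 3 of these as lower (HSPA8, HSP90AB1 and HSPE1), and it called 6.99% of all genes lower. Limma-voom called 0 of the 10, and 3.56% of all genes lower. The median log2 fold change of the 10 genes was -0.37 with SW-682 and 0.13 with pTEADi, beside medians over all genes tested of 0.0111 and -0.0007.

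**Figure D2:**
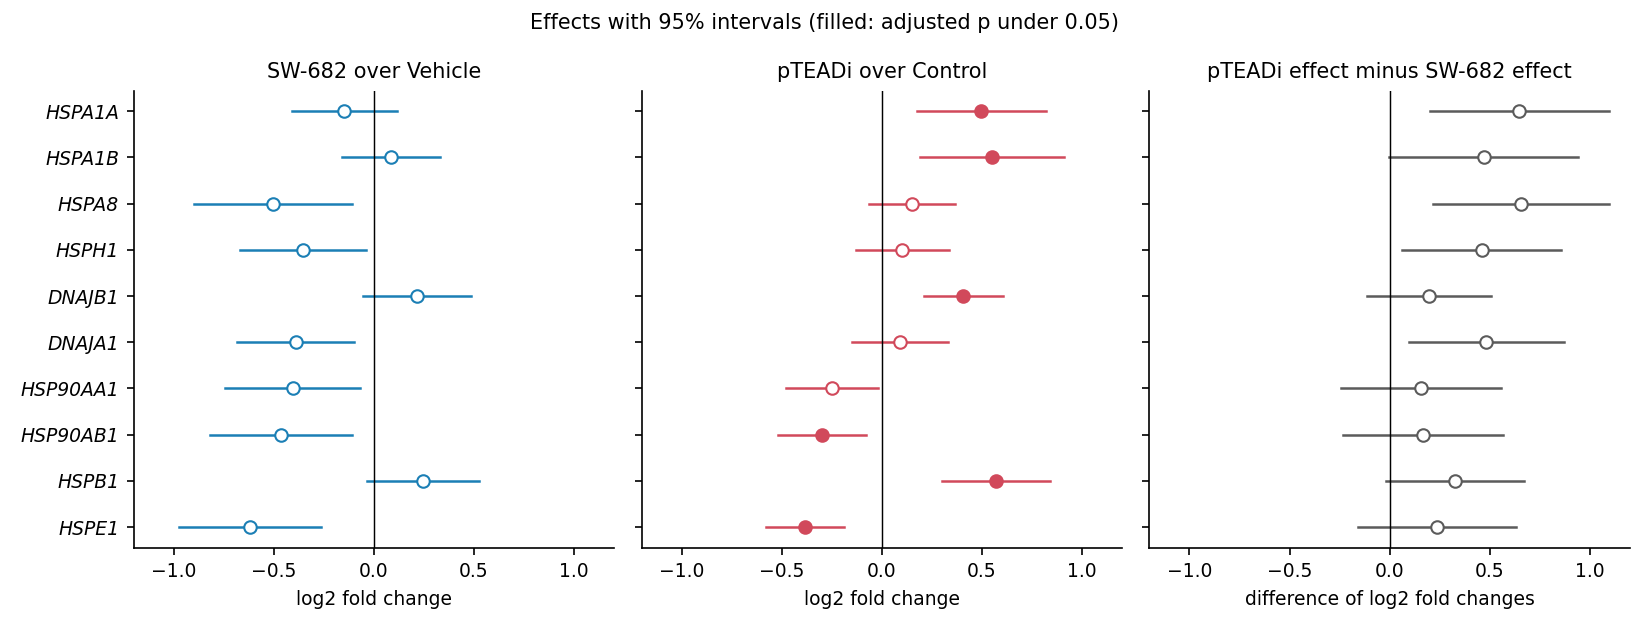
Log2 fold change (horizontal axis) of each heat shock gene with SW-682 and with pTEADi (left and middle), and the difference of these effects (right), with 95% confidence intervals from edgeR; filled points have an adjusted p under 0.05. HSPE1 lies left of 0 in both comparisons, HSPB1 right of 0 in both, all 10 differences lie right of 0 with no filled point, and HSPA1A and HSPA1B lie near 0 with SW-682 and near 0.50 and 0.55 with pTEADi.

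The stress-inducible HSP70 genes HSPA1A and HSPA1B were among the 4 genes that rose with pTEADi. HSPA1A stood at 209, 184 and 230 CPM in Vehicle, 181, 176 and 207 with SW-682, 309, 305 and 431 in Control, and 519, 551 and 408 with pTEADi. The Vehicle and SW-682 libraries were mixed, while in the second experiment Control 3 lay above pTEADi 3, so those groups overlapped as well. HSPA1A rose by 0.50 ± 0.15 (log2, SE) with pTEADi, 1.41-fold (95% interval 0.17 to 0.82, adjusted p = 0.0271 in edgeR), and its change with SW-682 was -0.15 ± 0.12 (adjusted p = 0.438).

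HSPA1B, which encodes a nearly identical protein, was at 426, 379 and 397 CPM in Vehicle, 431, 385 and 459 with SW-682, 497, 455 and 698 in Control, and 871, 900 and 651 with pTEADi. As for HSPA1A, Control 3 was the highest Control library and pTEADi 3 the lowest treated one, and they overlapped. HSPA1B rose by 0.55 ± 0.16 with pTEADi (1.47-fold, adjusted p = 0.0277 in edgeR), and changed by 0.08 ± 0.11 with SW-682 (adjusted p = 0.648).

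Added together, the HSPA1A and HSPA1B counts gave the same picture without the question of how reads were divided. The sum rose by 0.53 ± 0.16 with pTEADi (adjusted p = 0.0293 in edgeR) and changed by 0.01 ± 0.11 with SW-682 (adjusted p = 0.964). HSPA1B made up 59.9% to 70.4% of the pair across the 12 libraries. The pTEADi call for both genes depended on the libraries used: without Control 1 the adjusted p was 0.122 for HSPA1A and 0.117 for HSPA1B, without pTEADi 1 it was 0.0926 and 0.100, and without pTEADi 2 it was 0.119 and 0.118. The fold change was larger without Control 3, the library that overlapped.

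HSPA8 encodes the HSP70 protein that cells make at all times. Its levels were 1512, 1228 and 1622 CPM in Vehicle, 792, 1070 and 1215 with SW-682, 1451, 1230 and 1324 in Control, and 1499, 1428 and 1526 with pTEADi. Every SW-682 library was below every Vehicle library, by a narrow margin between SW-682 3 and Vehicle 2, while Control and pTEADi overlapped. The SW-682 change of -0.50 ± 0.18 (95% interval -0.90 to -0.11) did not pass (adjusted p = 0.106 in edgeR), and the pTEADi change was 0.15 ± 0.10 (95% interval -0.06 to 0.37, adjusted p = 0.291). DESeq2 gave an adjusted p of 0.0273 for HSPA8 with SW-682.

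The inducible pair and the constant gene of the HSP70 group kept different proportions in the groups. The ratio of HSPA1A plus HSPA1B to HSPA8 was 0.387 to 0.459 in Vehicle and 0.524 to 0.772 with SW-682, so these groups did not overlap. It was 0.555 to 0.852 in Control and 0.694 to 1.02 with pTEADi, with overlap. The ratio was 1.44-fold higher in the first comparison and 1.31-fold in the second. With SW-682 the sum of the pair changed by 0.01 (log2) and HSPA8 by -0.50, which did not pass. With pTEADi the sum rose by 0.53 and HSPA8 changed by 0.15. Ratios were picked after the levels had been seen and are given without a test.

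Among the J-domain genes, DNAJB1, which encodes the partner that feeds substrates to HSP70 in stressed cells, rose with pTEADi. It was at 323, 296 and 311 CPM in Vehicle, 408, 310 and 360 with SW-682, 341, 337 and 373 in Control, and 469, 491 and 437 with pTEADi. All 3 pTEADi libraries stood above all 3 Control libraries, while SW-682 2 lay between Vehicle libraries. DNAJB1 rose by 0.41 ± 0.09 with pTEADi (1.33-fold, 95% interval 0.21 to 0.60, adjusted p = 0.00590 in edgeR), and with SW-682 its change was 0.21 ± 0.12 (adjusted p = 0.275).

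DNAJA1, a constant J-domain partner of HSPA8, was at 156, 117 and 149 CPM in Vehicle, 96.7, 108 and 117 with SW-682, 132, 113 and 154 in Control, and 140, 137 and 150 with pTEADi. Vehicle 2 and SW-682 3 were nearly level, and the pTEADi libraries lay inside the range of Control. The SW-682 change was -0.39 ± 0.13 (adjusted p = 0.0953 in edgeR) and the pTEADi change 0.09 ± 0.11 (adjusted p = 0.587). The ratio of DNAJB1 to DNAJA1 was 2.07 to 2.53 in Vehicle and 2.88 to 4.22 with SW-682, without overlap, and 2.41 to 2.97 in Control and 2.92 to 3.6 with pTEADi, with a slight overlap.

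HSPH1, the HSP110 gene whose protein exchanges the nucleotide of HSP70, followed DNAJA1 closely across the libraries (Pearson r = 0.979 of log2 CPM over 12 libraries, the highest of all pairs among the 10 genes). Its levels were 259.2, 186.3 and 248.97 CPM in Vehicle, 162, 186 and 195 with SW-682, 227, 198 and 264 in Control, and 255, 238 and 248 with pTEADi. Groups overlapped in both experiments, with Vehicle 2 level with SW-682 2. HSPH1 changed by -0.36 ± 0.14 with SW-682 (adjusted p = 0.138 in edgeR) and by 0.10 ± 0.11 with pTEADi (adjusted p = 0.522).

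Both HSP90 genes had lower means in the treated tumours of each experiment, and one of these changes passed the test. HSP90AB1, the constant HSP90 gene, was at 1416, 1219 and 1643 CPM in Vehicle, 852, 1090 and 1160 with SW-682, 1653, 1723 and 1870 in Control, and 1535, 1353 and 1388 with pTEADi. In each experiment all 3 treated libraries were below all 3 of their controls. HSP90AB1 fell by 0.30 with pTEADi (log2 fold change -0.30 ± 0.10, adjusted p = 0.0480 in edgeR), and its SW-682 change of -0.46 ± 0.16 did not pass (adjusted p = 0.100).

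The pTEADi call for HSP90AB1 lay close to the threshold. It was lost with RLE scaling (adjusted p = 0.0545), with a spread shared by all 4 groups (0.127) and when any 1 library other than Control 2 was left out, the highest value being 0.203. Without Control 2 the adjusted p was 0.0456.

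HSP90AA1, the stress-inducible HSP90 gene, was at 893, 659 and 963 CPM in Vehicle, 587, 646 and 668 with SW-682, 972, 922 and 1160 in Control, and 871, 827 and 875 with pTEADi. The pTEADi libraries were all below Control, and SW-682 3 lay just above Vehicle 2. Its changes of -0.40 ± 0.15 with SW-682 (adjusted p = 0.122 in edgeR) and -0.25 ± 0.11 with pTEADi (adjusted p = 0.106) did not pass. Without Control 2 the adjusted p of the pTEADi change was 0.0371. The ratio of HSP90AA1 to HSP90AB1 stayed between 0.535 and 0.688 in all 12 libraries, and the groups overlapped in both experiments. HSP90AA1, an inducible gene like HSPA1A, had a negative fold change in the comparison in which HSPA1A rose.

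HSPB1 (ENSG00000106211.10, chr7:76302673-76304295, plus strand, 3 exons) was the most abundant of the 10 genes. Its levels were 3548, 4041 and 3824 CPM in Vehicle, 4560, 4343 and 4626 with SW-682, 5936, 5267 and 6432 in Control, and 9166, 9255 and 7801 with pTEADi. The treated libraries were above their controls in both experiments, by a wide gap with pTEADi and a narrow one with SW-682. HSPB1 rose by 0.57 ± 0.12 with pTEADi (1.49-fold, 95% interval 0.30 to 0.84, adjusted p = 0.00543 in edgeR), and its SW-682 change of 0.25 ± 0.13 did not pass (95% interval -0.04 to 0.53, adjusted p = 0.234). The ratio of HSPB1 to HSP90AB1 was 2.33 to 3.31 in Vehicle and 3.99 to 5.35 with SW-682, and 3.06 to 3.59 in Control and 5.62 to 6.84 with pTEADi. It separated treated and control libraries in both experiments. That follows from the levels, since HSPB1 was higher and HSP90AB1 lower without overlap in each, and is no further result.

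HSPE1 (ENSG00000115541.11, chr2:197500140-197503449, plus strand, 4 exons) was lower in the treated tumours of both experiments. Its levels were 53.6, 41.4 and 54.3 CPM in Vehicle, 25.9, 37.3 and 34.1 with SW-682, 50.01, 52.8 and 55.1 in Control, and 38.7, 42.3 and 40.4 with pTEADi. No treated library reached a control library of its own experiment. HSPE1 fell by 0.38 with pTEADi (log2 fold change -0.38 ± 0.09, 95% interval -0.58 to -0.19, adjusted p = 0.00834 in edgeR). With a spread shared by all 4 groups its adjusted p was 0.0511. The SW-682 change was -0.62 ± 0.16 (95% interval -0.97 to -0.26), with an adjusted p of 0.0521 in edgeR and of 0.00840 in DESeq2.

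HSPD1, whose product forms the chaperonin ring that the HSPE1 protein caps, starts 539 bases from HSPE1 on the opposite strand. It stood at 319, 222 and 367 CPM in Vehicle, 126, 184 and 185 with SW-682, 337, 341 and 346 in Control, and 206, 203 and 211 with pTEADi. As for HSPE1, no treated library overlapped its controls. HSPD1 fell by 0.88 with SW-682 (adjusted p = 0.0443 in edgeR) and by 0.73 with pTEADi (adjusted p = 9.4e-05). The SW-682 call for HSPD1 was lost when any 1 library other than Vehicle 2 was left out, with an adjusted p of up to 0.203. The window printed for HSPD1 holds 2 overlapping matches to GAANNTTCNNGAA and lies just before the annotated start of the HSPE1 gene. A readthrough gene model, HSPE1-MOB4, was counted at 0.452 to 2.56 CPM, far below HSPE1, and pseudogene copies of the 10 genes stayed at 0.698 CPM or less.

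**Figure D3:**
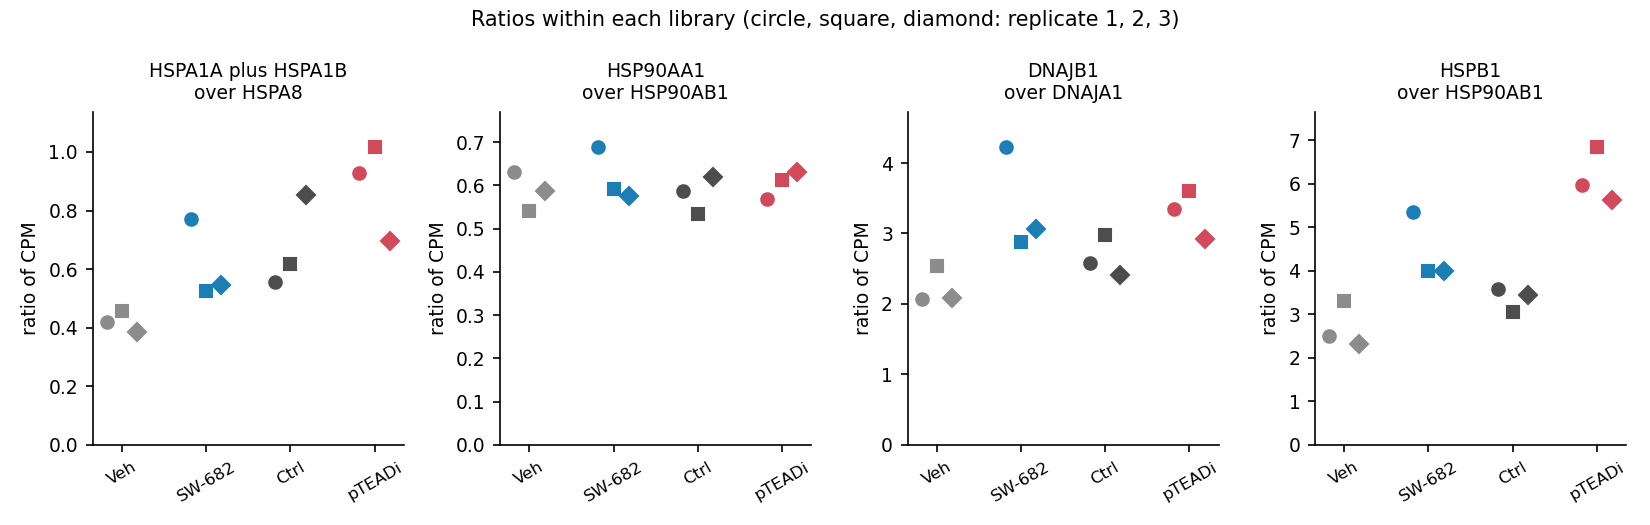
Ratios of TMM-scaled CPM between pairs of heat shock genes (vertical axes, from 0) in the 4 groups, 1 point per tumour library. HSPB1 over HSP90AB1 separates treated from control libraries in both experiments, as the levels of each of these genes already do, and HSP90AA1 over HSP90AB1 overlaps in both.

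Groups that did not overlap were counted for 4 of 10 genes with SW-682 (HSPB1 higher, HSPA8, HSP90AB1 and HSPE1 lower) and for 5 of 10 with pTEADi (DNAJB1 and HSPB1 higher, HSP90AA1, HSP90AB1 and HSPE1 lower). Over all genes tested, 33.0% did not overlap with SW-682 (15.7% higher, 17.3% lower) and 42.0% with pTEADi (20.3% higher, 21.7% lower), so the count of heat shock genes was near that background in both comparisons.

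Whether the effects of pTEADi and SW-682 differed was tested in a fit of all 12 libraries, which share no control samples between the experiments. None of the 10 differences passed (0 of 10 in edgeR, DESeq2 and limma-voom, against 0.0129% of 15460 genes in edgeR), and 4 had an unadjusted p under 0.05, against 7.13% of all genes. All 10 were positive, meaning a higher fold change with pTEADi, while 51.7% of all genes were positive, and their median was 0.39. The largest were HSPA8 (0.66 ± 0.21, 95% interval 0.22 to 1.097, adjusted p = 0.516 in edgeR) and HSPA1A (0.65 ± 0.21, 0.20 to 1.09, adjusted p = 0.537). HSPH1 (0.46 ± 0.19) and DNAJA1 (0.48 ± 0.18) were the other two with an unadjusted p under 0.05. For HSP90AB1 the difference was 0.17, with a 95% interval of -0.23 to 0.57, and for HSPE1 it was 0.24, with an interval of -0.16 to 0.63. Without the low-count filter, HSPA1A and HSPA8 passed (adjusted p = 0.00743 and 0.0116), in a fit that called 1.33% of 28259 genes.

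Single libraries were high or low within their group across many of the 10 genes. Vehicle 2 was the lowest Vehicle library for 9 of the 10, HSPB1 being the exception, and Control 3 was the highest Control library for 9, HSPA8 being the exception. SW-682 1 was the lowest of its group for 6 genes and SW-682 3 the highest for 8. Without Vehicle 2, 4 genes fell with SW-682 in edgeR: HSPH1 (adjusted p = 0.0361), HSP90AA1 (0.0255), DNAJA1 (0.0322) and HSPE1 (0.0249). That fit called 5.41% of all genes lower. DNAJB1, HSPB1 and HSPE1 passed with pTEADi whichever library was left out, with adjusted p-values up to 0.0379, 0.0337 and 0.0420.

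**Figure D4:**
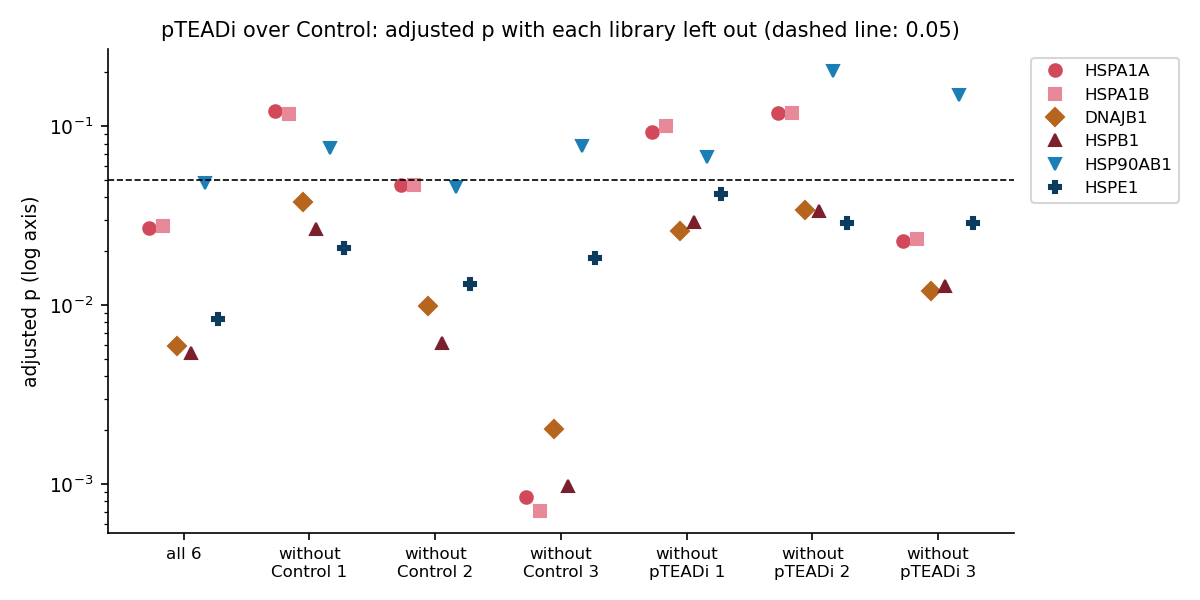
Adjusted p (log axis) of the 6 heat shock genes that passed with pTEADi, with all 6 libraries and with each left out; the dashed line marks 0.05. DNAJB1, HSPB1 and HSPE1 stay under the line throughout, HSPA1A and HSPA1B cross it without Control 1, pTEADi 1 or pTEADi 2, and HSP90AB1 stays under it only without Control 2.

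Across the 12 libraries the genes formed loose sets. The log2 CPM of HSPA1A correlated with HSPA1B at r = 0.951 and with HSPB1 at 0.928, and HSP90AA1 with HSP90AB1 at 0.950. The lowest correlation was between DNAJB1 and HSPE1 (-0.353). These values describe 12 libraries of 4 groups from 2 experiments and include the differences between groups. Among the 5 protein-coding genes whose log2 CPM was most like the mean z-score of the 10 genes, out of 10619 with a mean of at least 5 CPM, were ALDH4A1 (r = 0.961), CPA4 (0.944), AHSA1 (0.937) and E2F2 (0.934). AHSA1 encodes the activator of the HSP90 ATPase, and ALDH4A1 encodes a mitochondrial enzyme.

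Compared per length of the annotated canonical transcript, HSPB1 had the highest level in Vehicle, 4896 ± 318 CPM per kb (SD, n = 3). HSPA8 (642 ± 89.9) and HSP90AB1 (558 ± 83.0) followed and overlapped each other. Below them were HSP90AA1 (260 ± 49.4), HSPA1B (159 ± 9.52) and DNAJB1 (138 ± 5.999), which did not overlap. HSPE1 (89.4 ± 13.0) and HSPA1A (86.6 ± 9.61) overlapped, above DNAJA1 (60.6 ± 8.99) and HSPH1 (44.1 ± 7.53). With pTEADi, HSPB1 reached 11250 ± 1049 CPM per kb, HSPA1B (321 ± 54.0) stood above HSP90AA1 (266 ± 8.28) with overlap, and HSPA1A (205 ± 31.2) was level with DNAJB1 (208 ± 12.3). The order below HSPB1 depended on the length used. Per kb of all annotated exons, HSP90AB1 (478.5) stood above HSPA8 (299.8) in Vehicle. DNAJB1 (37.8) then lay below DNAJA1 (52.7), and HSPH1 (27.6) and HSPE1 (27.3) were lowest. With pTEADi, HSPA1A was at 205 and DNAJB1 at 56.9 by that length.

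Set side by side across the experiments, the uninhibited tumours already differed in level. HSPB1 averaged 3804 ± 247 CPM in Vehicle and 5878 ± 585 in Control (SD, n = 3), HSPA1A 208 ± 23.1 and 348 ± 71.4, and HSP90AB1 1426 ± 212 and 1749 ± 111. All 3 HSPB1 and HSPA1A values of Control were above every Vehicle value. The share of all genes for which this holds was not counted. Not all of the 10 were higher in Control: HSPA8 averaged 1454 CPM in Vehicle and 1335 in Control, HSPH1 231 and 230, and DNAJA1 140 and 133. Tumour line, treatment schedule and experiment cannot be told apart in that contrast, which was not tested.

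The genes around the 10 were read from lists of the chaperone system. Beside the counts below, 12.7% of all genes tested rose and 13.6% fell with pTEADi. With SW-682, 2.02% of all genes rose and 3.48% fell, and 27.8% had an unadjusted p under 0.05. Among heat shock factors and their regulators, 6 were tested, and with pTEADi HSBP1, which encodes an HSF1-binding protein, rose by 0.34 ± 0.10 (adjusted p = 0.0218 in edgeR) while HSF2BP fell by 1.18 (adjusted p = 0.0130). HSF1 itself was at 142 ± 7.07 CPM in Vehicle, 135 ± 10.96 with SW-682, 221 ± 26.8 in Control and 192 ± 16.0 with pTEADi (SD, n = 3), and its log2 fold changes of -0.07 and -0.21 did not pass (adjusted p = 0.693 and 0.169). The HSBP1 call was lost without pTEADi 1 or pTEADi 3 (adjusted p = 0.0751 and 0.0826) and that of HSF2BP without pTEADi 2 or pTEADi 3 (0.0623 and 0.061). With SW-682 none of the 6 passed in edgeR, DESeq2 or limma-voom, and 0 had an unadjusted p under 0.05.

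Of 8 other HSP70 and HSP110 genes, HSPA13, which encodes an HSP70 protein of microsomes, fell with pTEADi by 0.44 (adjusted p = 0.0491 in edgeR), a call that DESeq2 did not make (0.0919) and that held, of the 6 libraries, only without pTEADi 3, with values up to 0.179. HSPA6, a strictly stress-inducible HSP70 gene, remained near the bottom of the scale, at 3.32 ± 0.255 CPM in Vehicle and 6.54 ± 0.649 with pTEADi, and its pTEADi change of 0.40 ± 0.20 did not pass (adjusted p = 0.158). With SW-682, 0 of the 8 passed in edgeR, DESeq2 or limma-voom, and 0 had an unadjusted p under 0.05.

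Among 11 other J-domain genes, DNAJA4 (0.57 ± 0.10, adjusted p = 0.00210 in edgeR) and DNAJB2 (0.33 ± 0.10, adjusted p = 0.0226) rose with pTEADi. DNAJC9, a histone-binding J-domain gene, fell in both experiments, by 0.84 with SW-682 (adjusted p = 0.0425) and by 0.64 with pTEADi (adjusted p = 0.000985). The SW-682 call of DNAJC9 was lost without any 1 library other than Vehicle 2 (adjusted p up to 0.198), and the pTEADi call of DNAJB2 without Control 1, pTEADi 1 or pTEADi 2 (up to 0.0985). Of 10 nucleotide exchange and HSP70-binding genes, STUB1, encoding the ubiquitin ligase CHIP, rose with pTEADi (0.28 ± 0.09, adjusted p = 0.0380) and HSPBP1 fell by 0.47 (adjusted p = 0.00757). STUB1 passed only without Control 2 or pTEADi 3 when 1 library was left out, with values up to 0.161. BAG3, another HSF1 target that acts with HSPB8, changed by 0.23 with pTEADi (adjusted p = 0.100). With SW-682, 0 of those 10 passed in edgeR, DESeq2 or limma-voom, with 1 unadjusted p under 0.05.

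Of 12 HSP90 co-chaperones tested, 1 had a positive fold change with SW-682 (median -0.19), where 51.1% of all genes were positive, and 2 with pTEADi (median -0.11), where 49.9% were. Most of these genes did not pass the test. With pTEADi 3 of the 12 fell and 0 rose, where 13.6% of all genes fell and 26.3% passed in either direction. With pTEADi, PTGES3 (p23), FKBP5 and NUDC fell, by 0.30, 0.67 and 0.37 (adjusted p = 0.0254, 0.0160 and 0.0152 in edgeR), and with SW-682 none passed in edgeR, DESeq2 or limma-voom, with 1 unadjusted p under 0.05. When 1 library was left out, PTGES3 was lost without any pTEADi library (adjusted p up to 0.139), FKBP5 without Control 1 or pTEADi 2 (up to 0.0913) and NUDC without Control 1, pTEADi 2 or pTEADi 3 (up to 0.0893). Of the other small heat shock genes, 3 were tested. CRYAB rose with SW-682 (0.54 ± 0.13, adjusted p = 0.0437) and HSPB8 rose with pTEADi (0.58 ± 0.14, adjusted p = 0.00932), while CRYAB changed by 0.03 ± 0.18 there (adjusted p = 0.920). The CRYAB call was lost without Vehicle 1, Vehicle 3, SW-682 1 or SW-682 3 (adjusted p up to 0.198).

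Mitochondrial chaperones and proteases, the group to which HSPE1 belongs by function, included HSPD1 and TRAP1, the mitochondrial HSP90 gene, which fell in both experiments. TRAP1 fell by 0.61 with SW-682 (adjusted p = 0.0450 in edgeR) and by 0.61 with pTEADi (adjusted p = 0.00197), and GRPEL1 fell with pTEADi by 0.40 (adjusted p = 0.0219). As for HSPD1, the SW-682 call of TRAP1 was lost without any 1 library other than Vehicle 2 (adjusted p up to 0.203), and GRPEL1 was lost without Control 2 or pTEADi 2 (0.0562 and 0.118). Of 10 genes tested, 2 fell and 0 rose with SW-682 (median -0.23), and 3 fell and 0 rose with pTEADi (median -0.21). Over all genes, 3.48% fell with SW-682 and 13.6% with pTEADi, where 26.3% passed in either direction.

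The cytosolic chaperonin TRiC and its feeder prefoldin, which fold actin and tubulin, gave 14 tested genes, and 8 of them fell with pTEADi and 0 rose (median -0.28), where 13.6% of all genes fell. They were TCP1, CCT2, CCT4, CCT5, CCT6A, CCT7, PFDN2 and PFDN4, with CCT5 falling by 0.42 (adjusted p = 0.00371 in edgeR) and PFDN2 by 0.47 (adjusted p = 0.00693). The count was 3 with a spread shared by all 4 groups, 4 without Control 1, 3 without pTEADi 1 and 2 without pTEADi 2. Those fits called 11%, 9.09%, 9.71% and 7.67% of all genes lower. With SW-682, 13 of 14 had a negative fold change (median -0.35) and 8 had an unadjusted p under 0.05. None passed in edgeR or limma-voom, and DESeq2 called 2 as lower, in a fit that called 6.99% of all genes lower. Over all genes, 51.1% were positive with SW-682 and 27.8% had an unadjusted p under 0.05.

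**Figure D5:**
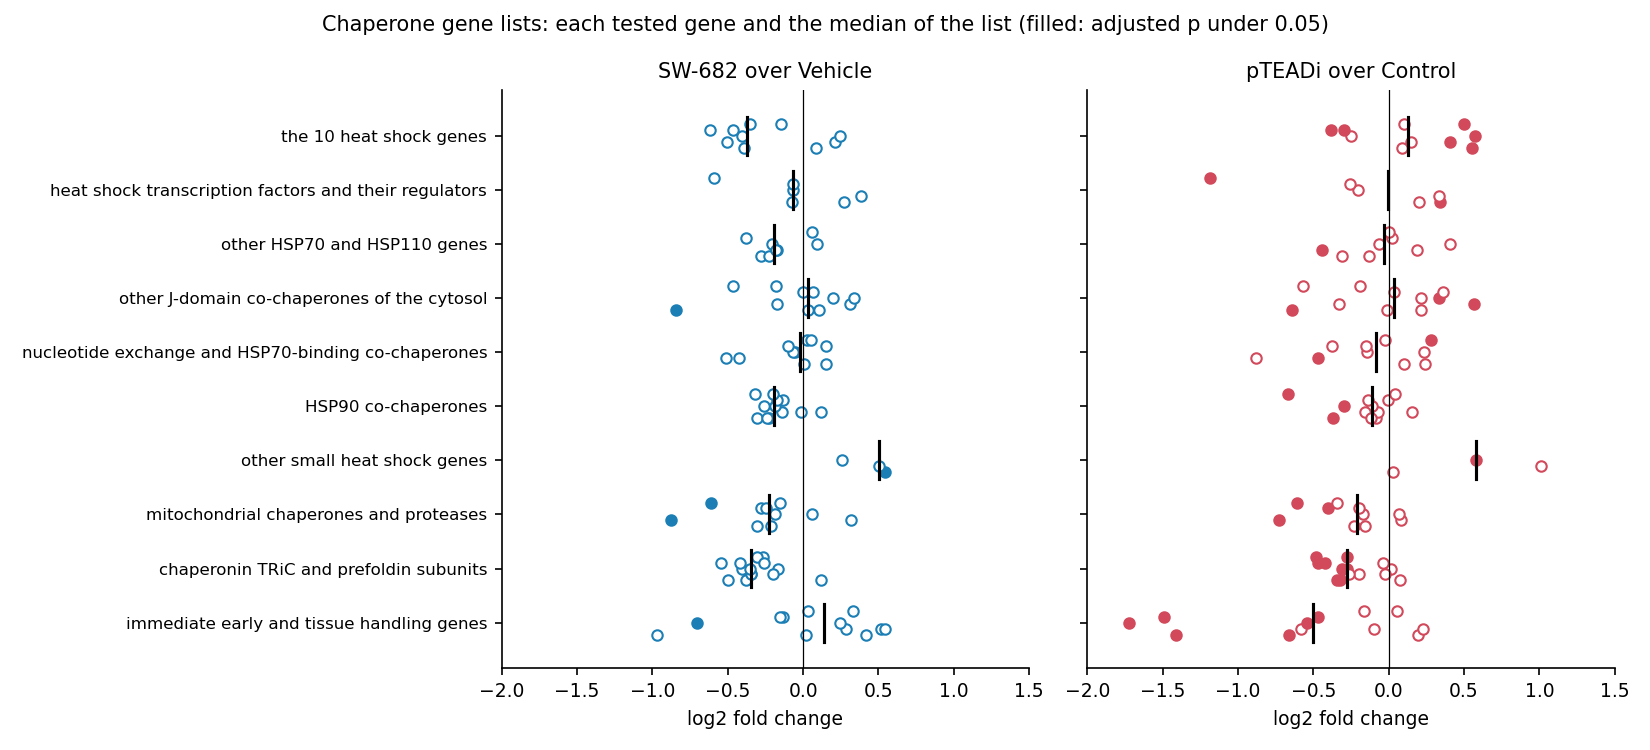
Log2 fold change (horizontal axes) of every tested gene of the chaperone lists and of the immediate early list with SW-682 and with pTEADi; 1 point per gene, filled where the adjusted p was under 0.05, bars at list medians. Filled points of the TRiC and prefoldin list and of the mitochondrial list lie left of 0, whereas 4 of the 6 filled points of the heat shock genes with pTEADi lie right of it.

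Immediate early genes, which also respond to handling of tissue, fell or did not pass with pTEADi. Of 12 tested, 6 fell and 0 rose, among them IER3 (by 1.72, adjusted p = 8.35e-05 in edgeR), FOS (by 1.49, adjusted p = 0.00348) and ATF3 (by 1.41, adjusted p = 0.00269). Over all genes, 13.6% fell and 12.7% rose with pTEADi. With SW-682, EGR1 fell by 0.70 (adjusted p = 0.0365) and the other 11 did not pass. That call was lost without Vehicle 1, Vehicle 3 or SW-682 3 (adjusted p up to 0.184). EGR1 was also among the 6 that fell with pTEADi, by 0.54 (adjusted p = 0.0121 in edgeR). Its pTEADi call was lost without Control 1 or pTEADi 2 (0.0629 and 0.0775). The summed level of the 12 genes was 809.6 to 952 CPM in Vehicle, 723 to 1236 with SW-682, 1010 to 1462 in Control and 935 to 991 with pTEADi. The part of tissue handling in the heat shock results was not tested.

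Of 8 squamous markers tested with pTEADi, KRT17 fell by 1.31 (adjusted p = 0.000248 in edgeR) and PERP rose by 0.46 (adjusted p = 0.00670). The other 6 did not pass, and with SW-682 none of the 8 did. Over all genes, 26.3% passed with pTEADi and 5.50% with SW-682. The summed endothelial markers were 15.9 to 33.2 CPM in Vehicle and 35.8 to 64.3 with SW-682. They were 13.0 to 21.1 CPM in Control and 30.7 to 42.0 with pTEADi. Nearly all of each sum was VWF. PECAM1, CDH5, KDR and TEK stayed at 0.211 CPM or below, and TEK was at 0 in every treated library. The higher sums with treatment are therefore those of VWF and not of the list. Leukocyte markers summed to 38.9 to 65.4 CPM in Control and 26.8 to 33.6 with pTEADi, where CD74 (by 0.59, adjusted p = 0.00310 in edgeR) and CSF1R (by 1.39, adjusted p = 0.0254) fell. The CSF1R call was lost without Control 2, pTEADi 2 or pTEADi 3 (adjusted p up to 0.11), and that of CD74 with a spread shared by all 4 groups (0.0525). Among the leukocyte markers, PTPRC stayed at 0.0698 CPM or below. Adipocyte markers summed to 21.5 to 27.9 CPM in Vehicle and 33.7 to 63.9 with SW-682, nearly all of it FABP4. PLIN1 stayed at 1.16 CPM or below, and ADIPOQ, CIDEC and LEP were at 0. Each of these sums is small beside the levels of HSPA8, HSP90AB1 and HSPB1, and their part in the results was not tested.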

How the data were processed

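Poly-T selected RNA of 12 Cal33 tumours was sequenced (150 bp, paired ends). The authors' deposited values are unscaled expected counts from RSEM 1.3.1 after STAR 2.7.9a alignment to hg38 with Gencode 38 models, per the labels. Strand setting and removal of host reads are not given in the sources used here. Between 6.77% and 7.27% of values were not whole and were rounded. No 2 libraries of a group were duplicates.

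In R 4.3.3, edgeR 4.0.16 filtered genes (filterByExpr, minimum count 10), scaled by TMM and tested each treatment against its own control with the two-sided quasi-likelihood test, Benjamini-Hochberg adjusted over all genes tested, threshold 0.05. The difference of effects used all 12 libraries. An SE is the fold change divided by the square root of F. The biological coefficient of variation was 0.157 (SW-682) and 0.118 (pTEADi). Scripts were tested on simulated data.

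The members, lists and alternatives were chosen with earlier results of these data known. Named genes were all members, up to 4 per list with the smallest p in a comparison, with others that passed, genes a result turns on (HSF1, HSPA6, BAG3, HSPD1, VWF), and the 5 most like in pattern, of which 1 is not reported here. One listed symbol, HSPB11, was not matched. Alternatives were RLE and upper-quartile scaling, other low-count filters, DESeq2 1.42.0, limma-voom 3.58.1, unrounded counts, HSPA1A and HSPA1B added, a replicate block, a spread shared by 4 groups, and leaving out each library. Promoter windows are RefSeq's (GRCh38.p14), and positions are from Gencode 44.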

Additional observations from a re-analysis of the deposited data

How the results depend on the processing

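Of 524 values of the 10 genes under the alternatives, 492 kept their direction and their side of the threshold, 15 lost a call, 16 gained one and 1 changed sign: DNAJA1 with pTEADi was -0.0149 without Control 2, and ranged up to 0.2148 without Control 3. With SW-682, the number of the 10 genes that fell went from 0 to 3 with no low-count filter, with DESeq2 and with a spread shared by all 4 groups, each time HSPA8, HSP90AB1 and HSPE1. These fits called 4.21%, 6.99% and 8.45% of all genes lower, against 3.48% as reported. The number that fell with SW-682 ranged from 0 to 4 when 1 library was left out, and the number that rose stayed 0. Those fits called 0% to 5.41% of all genes lower and 0% to 5.28% higher. With pTEADi, the number that fell went from 2 to 1 with RLE scaling, to 1 with the replicate block (HSP90AB1 lost, adjusted p = 0.071) and to 0 with the shared spread, where HSP90AB1 had an adjusted p of 0.127 and HSPE1 of 0.0511. Leaving out 1 library gave 2 to 4 that rose and 1 to 3 that fell. For the difference of effects, 2 rose with no low-count filter (HSPA1A and HSPA8) in place of 0, with 0.552% of all genes higher. The cause of these shifts was not tested.

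Replicate numbers were not taken as pairs: same-numbered libraries deviated from their group means with correlations of -0.152 to 0.147 across genes, and 2 of 6 libraries in the SW-682 experiment and 0 of 6 in the pTEADi experiment correlated best with their own number. The replicate block called 0 genes with SW-682 over all genes in place of 816, 1844 higher and 1863 lower with pTEADi, and 0 for the difference in place of 2. Over all genes, the SW-682 count of 816 also went to 0 without SW-682 3, Vehicle 1 or Vehicle 3. For the genes of the other lists that passed or were named, 541 of 624 values stayed as reported, 82 lost a call, 1 gained one and 0 changed sign. DNAJC9, DNAJA4, HSPD1 and TRAP1 kept their pTEADi calls without any 1 library.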
